A study of Mus musculus with 2 samples.

Results

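Scavenger and efferocytosis receptors of mouse bone marrow cultures were followed under heme exposure. The 8 receptor genes Marco, Msr1, Cd36, Mrc1, Mertk, Axl, Trem2 and Adgre1 were taken by name, and all 8 were present among the 26124 genes of both count matrices. Lineage-depleted (Lin-) progenitors of C57BL/6 mice aged 8 to 10 weeks were cultured with GM-CSF (20 ng/ml), which yields dendritic cells, macrophages and granulocytes side by side. On day 3, heme-albumin (300 µM) was added to the heme cultures and albumin alone to the control cultures. Each condition was 1 droplet library that pooled 5 cultures, which carried antibody-bound DNA hashtags named for culture days 0, 3, 4, 5 and 7. The comparison of the 2 libraries shows how receptor transcripts differed when heme was present during differentiation.

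These receptors recognize what a phagocyte clears. Class A scavenger receptors (Marco, Msr1) and the class B receptor Cd36 bind modified lipoproteins, microbial surfaces and dying cells. The mannose receptor Mrc1 takes up glycoproteins with exposed mannose. The TAM kinases Mertk and Axl detect phosphatidylserine on apoptotic cells through the bridging molecules Gas6 and Pros1. Trem2 senses lipids and signals through the adaptor Tyrobp, and Adgre1 encodes F4/80, a surface marker of mouse macrophages. In the spleen, macrophages with such receptors clear aged red cells and degrade their heme with Hmox1. Arg1 encodes arginase, a gene used to mark alternatively activated macrophages.

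All positions are those of GRCm38. Marco lies at chr1:120474538-120505024 and Msr1 at chr8:39581685-39642673, both on the minus strand. Cd36 (chr5:17781690-17888801) and Axl (chr7:25757273-25788705) are also on the minus strand. Mrc1 (chr2:14229392-14332057) and Mertk (chr2:128698956-128802894) share a chromosome and the plus strand, as do Trem2 (chr17:48346401-48354147) and Adgre1 (chr17:57358691-57483527). UMIs were counted from the 3′ ends of transcripts over whole genes, so no exon is singled out and levels are compared between cultures, not between genes.

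Promoter sequences are shown for the receptors that differed most on day 7, in both directions. RefSeq sequence of GRCm38.p6 was available for 6 of the 8 genes, and the 250 bases before the annotated start were searched on both strands. No promoter among these 6 held the antioxidant response element core TGACNNNGC, which 10.2% of all 32851 promoter windows contained. The letters GAGGAA, the PU box of ETS factors such as Spi1 and Spic, were found in 4 of the 6 (Marco, Mrc1, Axl and Trem2) and in 23.3% of all windows. A match locates letters only, and its absence draws nothing about a factor. In the sequences, capitals mark GAGGAA or its reverse complement TTCCTC.
Marco, chr1:120505025-120505274, minus strand: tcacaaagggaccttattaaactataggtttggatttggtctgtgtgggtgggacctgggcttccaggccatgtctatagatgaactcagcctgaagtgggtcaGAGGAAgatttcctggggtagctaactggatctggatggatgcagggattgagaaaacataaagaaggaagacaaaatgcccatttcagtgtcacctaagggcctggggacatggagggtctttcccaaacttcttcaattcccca
Mrc1, chr2:14229164-14229413, plus strand: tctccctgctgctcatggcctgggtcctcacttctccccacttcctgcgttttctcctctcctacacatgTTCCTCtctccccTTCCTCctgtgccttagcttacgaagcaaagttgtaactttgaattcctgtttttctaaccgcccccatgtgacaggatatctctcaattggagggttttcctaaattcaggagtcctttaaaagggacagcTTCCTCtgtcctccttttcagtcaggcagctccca
Axl, chr7:25788734-25788983, minus strand: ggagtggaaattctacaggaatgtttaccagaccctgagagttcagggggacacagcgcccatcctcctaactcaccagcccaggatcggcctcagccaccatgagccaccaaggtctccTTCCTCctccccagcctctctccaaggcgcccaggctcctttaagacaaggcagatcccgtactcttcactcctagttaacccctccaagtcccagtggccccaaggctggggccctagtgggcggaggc
Mrc1, which was higher with heme, held 3 matches, whereas Marco, which was also higher, and Axl, which was lower, held 1 match each.

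Levels are given in CPM, that is, the UMIs of a gene summed over the kept cells of a culture and scaled to 1000000 gene UMIs. Kept cells numbered 9364 in the control and 9786 in the heme library, and the cultures held 3031279 to 33437035 gene UMIs. With 1 library per condition no test between conditions was possible. Intervals are exact 95% Poisson or binomial intervals that cover counting error only, and a gene was called higher or lower where the 2 libraries differed by 2-fold or more. The libraries shared 112 cell barcodes, of which 29 were among the kept cells of both. They also differed in the cultures that had not been exposed. On day 3, the heme library already held 161 CPM Hmox1 against 37.4 CPM in the control library, and summed granulocyte-monocyte progenitor markers stood at 2770 against 5980 CPM. Hmox1 UMIs were found in 34.9% of day 0 cells of the heme library and in 0.664% of those of the control library, at equal depth. Levels on days 0 and 3 are therefore given as the background of each pool. Exposed and unexposed cells of a pool were processed together, so these levels include any free RNA they shared. Day 0 of the heme library stood at 6.92% of the library mean for Hmox1 and 6.32% for Marco. Over the 8 receptors this share ran from 1.23% (Mertk) to 16.8% (Trem2). Whether the UMIs came from the cells themselves or from shared RNA was not tested. The median gene of all genes tested was higher in the heme library by 0.25 to 0.33 on the log2 scale on every day, and the ratios below are not corrected for this shift.

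On day 7, 4 of the 8 receptors (Marco, Msr1, Mrc1 and Adgre1) were higher with heme and 1 (Axl) was lower. Over all genes tested on that day, 14.5% were higher and 7.37% lower by the same rule. The median log2 ratio was 1.07 for the 8 receptors and 0.27 for all genes. The receptors were chosen with earlier results of these data known, so these figures describe them and are no test. On day 4, 2 receptors (Marco, Cd36) were higher and 0 lower, beside 9.67% and 2.93% of all genes. On day 5, 2 (Marco, Adgre1) were higher and 1 (Axl) lower, beside 9.28% and 3.78%. On day 3, before exposure, only Marco was past 2-fold among the 8, beside 7.94% of all genes higher. On day 0, 5 of the 7 receptors with at least 20 UMIs over both cultures were higher in the heme library, beside 13.2% of all genes. These (Marco, Msr1, Cd36, Mrc1, Adgre1) stood at 5.18 to 15.6 CPM there, and at 1 to 22 UMIs each in the control culture. The ribosomal limit was passed by 71.8% of control and 18.1% of heme Singlet cells of day 0. Of 1716 control and 1877 heme Singlet cells, 407 and 1213 were kept, so the 2 sets of cells may be unlike.

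**Figure D1:**
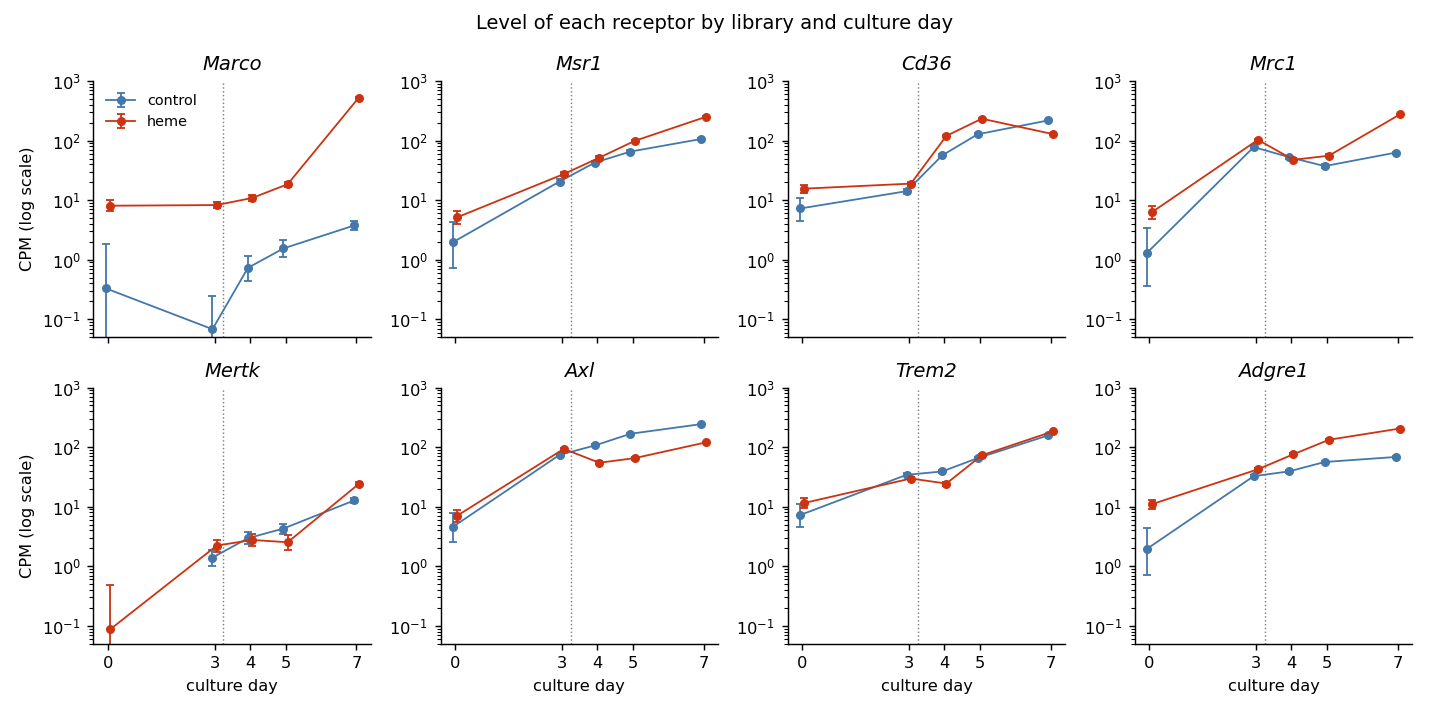
Level of each receptor (CPM, log scale) against culture day in the control (blue) and heme (red) library. Points are single cultures, bars are 95% Poisson intervals, and the dotted line marks heme addition on day 3; Mertk had no UMI in the control culture of day 0 and is not drawn there. Marco of the heme library stayed between 8.07 and 18.5 CPM until day 5 and reached 522 CPM on day 7.

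Marco encodes a class A scavenger receptor of marginal zone and alveolar macrophages. In the control library it stood at 0.33, 0.068, 0.73, 1.55 and 3.77 CPM on days 0, 3, 4, 5 and 7. In the heme library it stood at 8.07, 8.28, 10.9, 18.5 and 522 CPM. Marco UMIs were also counted in the heme cultures of days 0 and 3, which had not been exposed. The libraries differed 14.9-fold on day 4 and 12.0-fold on day 5. Day 4 was 1.32-fold (95% interval 1.11 to 1.56) and day 5 was 2.24-fold above day 3 of the same library. Day 7 of the heme library stood at 63.0 times its day 3 level (55.9 to 71.3) and at 138 times the control (116 to 166). In the control library day 7 stood at 55.2 times the day 3 level (15.0 to 461). The day 3 ratio of 121 rested on 2 control UMIs and had an interval of 33.3 to 1007.

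Msr1, the macrophage scavenger receptor SR-A, was measured at 1.98, 20.6, 42.8, 65.5 and 107 CPM in the control library. The heme library held 5.18, 27.5, 51.6, 99.0 and 249.9 CPM. Msr1 was thus higher on every later day in both libraries, and the distance between them in CPM widened. Its ratio of heme to control was 1.33 before exposure and then 1.20, 1.51 and 2.34 (2.25 to 2.44). The day 4 ratio was smaller than the shift of the median gene, and with TMM or DESeq2 scaling it was 0.99 or 1.02. With the same scaling the day 7 ratio was 1.97 or 1.98, just short of 2-fold.

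Cd36, a class B receptor that also takes up long-chain fatty acids, followed another course. Control cultures held 7.26, 14.2, 56.3, 128 and 219 CPM. Heme cultures held 15.6, 19.0, 119.9, 233 and 129 CPM. Heme exceeded control 2.13-fold (2.00 to 2.27) on day 4 and 1.83-fold on day 5, whereas day 7 showed the opposite order with a ratio of 0.59 (0.57 to 0.61). The day 7 order turned when the cells with over 5000 detected genes, which the study's limits exclude, were let in. With all Singlet cells of 500 genes or more, Cd36 stood at 220.4 CPM in the control and 255 CPM in the heme culture of day 7, and at 155 and 537 CPM on day 5. With TMM or DESeq2 scaling the day 4 ratio was 1.75 or 1.81, and without the 5% of cells with most UMIs it was 1.55. The limit removed 26.1% of Singlet cells in the heme culture of day 7 and 4.82% in the control culture.

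Mrc1 was high on day 3 in both libraries and lower on days 4 and 5. Its levels were 1.32, 77.9, 52.7, 37.3 and 62.8 CPM in the control library. In the heme library they were 6.23, 103, 47.6, 55.8 and 275 CPM. Day 7 of the heme library was the one heme-exposed culture above its day 3 level, by 2.66-fold (2.56 to 2.77), while day 7 of the control library stood at 0.81 of day 3. Heme to control ratios of Mrc1 were 1.32 before exposure and 0.90, 1.50 and 4.37 (4.17 to 4.59) after it. The day 4 ratio turned to 1.44 with all Singlet cells.

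The TAM kinases did not move alike. Axl, which is known as an inflammation-linked receptor of dendritic cells and macrophages, stood at 4.62, 74.1, 107, 168 and 244 CPM in the control library. Heme cultures held 7.11, 93.5, 54.7, 65.4 and 119.9 CPM. Before exposure the ratio of heme to control was 1.26 (1.19 to 1.33), close to the shift of the median gene. With TMM or DESeq2 scaling it was 1.00 or 1.05. After exposure the heme library held less Axl than the control on every day. Over the exposed days the ratios were 0.51 (0.48 to 0.55), 0.39 (0.37 to 0.42) and 0.49 (0.47 to 0.51). On days 5 and 7 the ratio remained under 1 in all 10 settings tried, but with all Singlet cells it was 0.60 and 0.54 and was no longer past 2-fold. The day 7 call was lost in 4 other settings as well, by a small margin in each. Without the ribosomal limit, for example, the log2 ratio was -0.94 in place of -1.02.

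Mertk, the main kinase of apoptotic cell uptake in resident macrophages, was held at few UMIs in both libraries. The control library held 0, 1.40, 2.96, 4.30 and 12.8 CPM. The heme library held 0.088, 2.22, 2.77, 2.53 and 23.9 CPM. Levels were low until day 5 in both libraries, and day 7 was highest in both. The day 7 ratio was 1.87 (1.66 to 2.12) and the day 5 ratio 0.59 (0.41 to 0.83), on 111 control and 49 heme UMIs. The day 5 ratio was 1.00 with all Singlet cells.

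Trem2 stayed within 2-fold between the libraries on days 3, 4, 5 and 7. It stood at 7.26, 34.3, 39.0, 65.3 and 158 CPM in the control library. In the heme library it stood at 11.6, 29.7, 24.4, 72.9 and 183 CPM. Its level on day 7 was 4.61 times that of day 3 in the control and 6.16 times in the heme library. The ratios between libraries were 0.63 (0.57 to 0.69), 1.12 and 1.16 (1.12 to 1.21) over the exposed days, and the last was smaller than the shift of the median gene. With all Singlet cells the day 4 ratio was 1.01, and with TMM scaling those of days 5 and 7 were 0.91 and 0.97.

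Adgre1 was higher in the heme library on every day. Control cultures held 1.98, 32.5, 39.2, 56.3 and 68.4 CPM. Heme cultures held 11.0, 42.5, 76.0, 133 and 205 CPM. The ratio was larger on each later day, from 1.31 on day 3 to 1.94 (1.80 to 2.09), 2.36 (2.21 to 2.52) and 3.00 (2.86 to 3.15) on days 4, 5 and 7. With TMM scaling the day 5 ratio was 1.93.

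**Figure D2:**
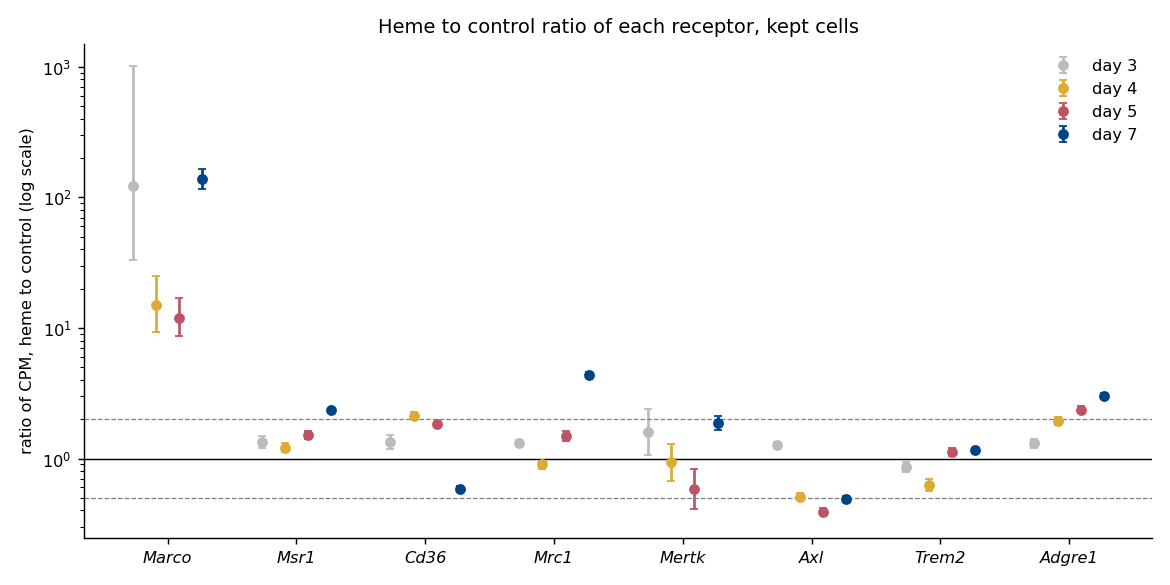
Ratio of CPM, heme to control, for each receptor on days 3 (grey), 4 (yellow), 5 (red) and 7 (blue), log scale, with exact 95% intervals; dashed lines mark 2-fold. On day 7 Marco (138), Mrc1 (4.37), Adgre1 (3.00) and Msr1 (2.34) lay above the upper line and Axl (0.49) just under the lower one.

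Time courses within each library compare cultures of 1 pool. On day 4, 4 receptors of the control and 1 of the heme library were at 2-fold or more of their day 3 level, beside 4.32% and 5.01% of all genes, and 0 and 1 were lower, beside 1.72% and 3.32%. On day 5, 5 were higher in each library, beside 9.81% and 9.22%, and 1 in the control and 0 in the heme library were lower, beside 4.00% and 6.90%. The receptor that was lower in each case was Mrc1. Between days 3 and 7, the level was higher by 2-fold or more for 7 of the 8 receptors in the control library and for 7 in the heme library, beside 15.7% and 12.5% of all genes, and none was lower, beside 8.64% and 9.55%. The exceptions were Mrc1 in the control library and Axl in the heme library (1.28-fold, 1.22 to 1.35). In the control library Axl was 3.29-fold higher on day 7 than on day 3 (3.14 to 3.45).

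Shares of cells with a UMI were compared after each cell had been thinned to 3000 UMIs, which left out 172 control and 112 heme cells of day 7. On day 0 the 8 receptors were found in 0% to 1.99% of control and 0.0957% to 3.92% of heme cells, which gives the background share of each pool. Marco was detected in 0.533% of control cells (0.284 to 0.909%) and 37.5% of heme cells (35.3 to 39.7%) on day 7. In the unexposed heme cultures of days 0 and 3 it was detected in 2.49% and 2.10% of cells, and in 2.50% and 2.95% on days 4 and 5. The shares of days 4 and 5 thus lay within 1 percentage point of those before exposure. Mrc1 was detected in 12.6% of control and 39.7% of heme cells on day 7. For Adgre1 these shares were 15.9% and 42.5%, and for Msr1 20.9% and 41.1%. Axl was found in 40.2% of control and 22.2% of heme cells, and Cd36 in 26.9% and 16.1%. Trem2 (31.3% and 34.4%) and Mertk (3.16% and 5.47%) lay closer together. Without thinning the day 7 shares were higher, for example 1.07% and 47.2% for Marco and 63.9% and 49.9% for Axl, in the same order between libraries.

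Several receptors were also detected in the same cells. On day 7 a control cell showed 1.51 of the 8 receptors on average and a heme cell 2.39. At least 4 receptors were seen in 7.38% of control and 29.4% of heme cells, against 0% in both day 0 cultures. Marco and Mrc1 were found together in 461 heme cells, 1.63 times the number expected from their single shares. Marco and Msr1 met in 438 heme cells (1.50 times). Adgre1 paired with other receptors at 1.06 to 1.26 times the expected number in the heme culture. In the control culture Msr1 and Mrc1 were together in 119 cells (1.85 times), whereas Adgre1 met Msr1 (1.00) and Mrc1 (0.98) as often as their single shares gave. Cells of 1 culture share a library, and these ratios are descriptions. They were taken over whole cultures, whose mix of cells differed between the libraries, and the part of that mix was not tested.

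The cultures did not hold the same mix of cells, and in sums over a whole culture fewer cells of a type and less RNA per cell cannot be told apart. Cells were divided by the summed share of neutrophil markers (S100a8, S100a9, Ngp, Ltf and others) and of mature dendritic cell markers (Ccr7, Fscn1, Ccl22 and others), lists that contain none of the 8 receptors. The cuts were set after the data had been seen and give ranges, not cell types. Neutrophil-marker high cells, with at least 5% of UMIs in those genes, made up 65.8%, 52.0% and 3.37% of the control cells of days 4, 5 and 7, and 81.7%, 68.8% and 18.6% of the heme cells. Dendritic-marker high cells were 18.0% of the control culture of day 7 and 1.84% of the heme culture. Cells low in both (under 1% neutrophil and under 0.2% dendritic markers) were 75.0% and 70.3% of the day 7 cultures. They held 82.0% to 98.9% of the UMIs of every receptor on that day. On day 7, 225 control and 438 heme cells lay near a cut.

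Within the cells low in both marker shares the differences of days 4 and 5 looked unlike those of the whole cultures. On day 4, 4 of the 8 receptors were higher with heme (Marco, Msr1, Cd36, Adgre1), beside 11.2% of all genes tested in those cells. On day 5 there were 5 (Marco, Msr1, Cd36, Mrc1, Adgre1), beside 11.8%, and on day 7 again 5 (Marco, Msr1, Mrc1, Mertk, Adgre1), beside 13.2%. None was lower by 2-fold on any of these days, while 3.30%, 4.37% and 7.06% of all genes were. In the same range on day 3, before exposure, the heme library was already higher in Msr1 (1.63-fold), Mrc1 (1.67-fold), Mertk (1.78-fold, 1.15 to 2.78), Axl (1.58-fold) and Adgre1 (1.45-fold). Marco was at 0.071 and 11.1 CPM there, on 1 and 138 UMIs, and Csf1r, the M-CSF receptor, was 1.51-fold higher.

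Cd36 showed the widest gap between whole cultures and this range. In cells low in both marker shares it stood at 114 CPM in control and 458 CPM in heme cells on day 4 (4.03-fold, 3.75 to 4.32). On day 5 it stood at 179 and 599 CPM (3.34-fold), and on day 7 at 231 and 151 CPM (0.65). Over these days Cd36 of the control cells thus increased, and that of the heme cells was highest on day 5. Axl moved from a ratio of 1.58 on day 3 to 0.84, 0.58 and 0.52 on days 4, 5 and 7, with 279 CPM in control and 145 CPM in heme cells on the last day. Marco stood at 1.31 and 22.2 CPM on day 4, 2.93 and 36.7 CPM on day 5, and 4.59 and 642 CPM on day 7. In the unexposed heme cells of this range on day 3 it was at 11.1 CPM.

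Adgre1 was also found outside this range. Neutrophil-marker high cells held 58.1% of its UMIs in the heme culture of day 4 and 50.9% in that of day 5. There Adgre1 stood at 28.6 CPM in control and 59.6 CPM in heme cells on day 4 (2.09-fold, 1.86 to 2.34), and at 54.6 and 132 CPM on day 5 (2.42-fold, 2.17 to 2.70). Before exposure, on day 3, it was already at 8.25 and 15.4 CPM in this range (1.87-fold, 1.49 to 2.36). On day 7 it was at 49.1 and 53.3 CPM. On day 4 the ratio in this range was larger for Cd36 (3.74), Trem2 (3.04), Msr1 (2.77) and Mrc1 (2.60) than for Adgre1. It was smaller for Axl (1.37), and Marco and Mertk rested on 1 and 2 control UMIs. The 7 receptors other than Adgre1 were at 0.44 to 22.4 CPM in the neutrophil-marker high heme cells of days 4 and 5. Marco, for example, was at 7.49 and 8.87 CPM there, near its 8.07 CPM in the unexposed heme culture of day 0. In dendritic-marker high cells of day 7, Axl was at 120.3 CPM in 470 control cells and 27.6 CPM in 37 heme cells.

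**Figure D3:**
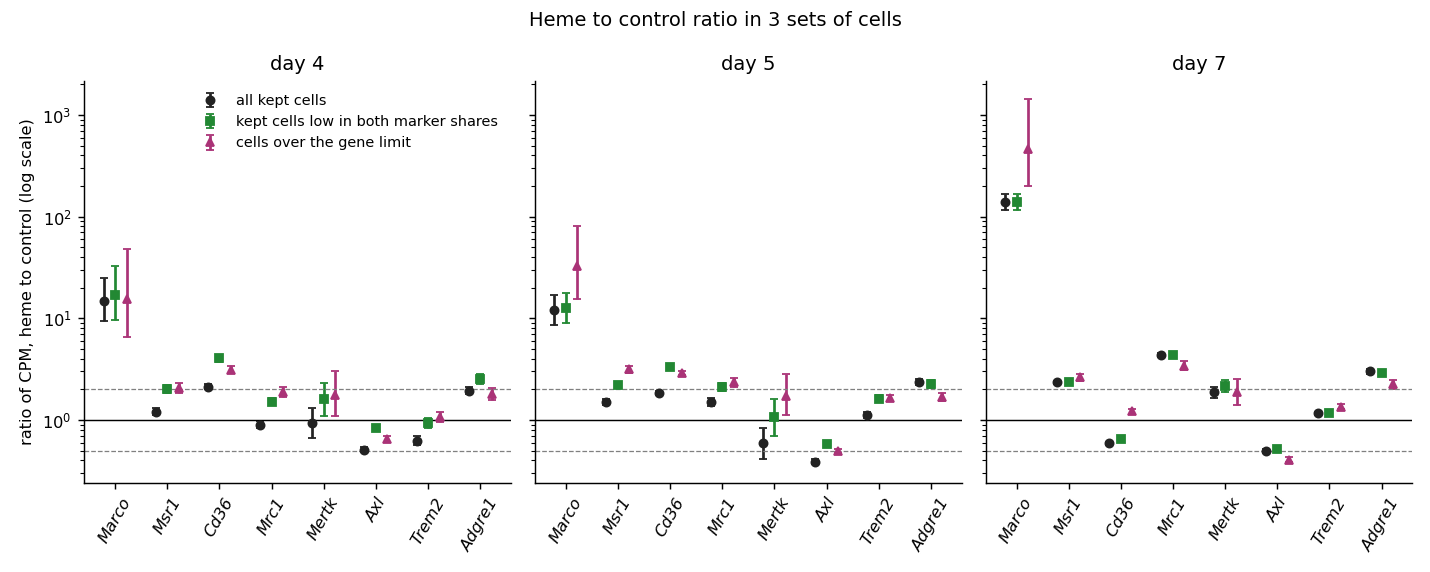
Ratio of CPM, heme to control (log scale), on days 4, 5 and 7 in all kept cells (black), in kept cells low in neutrophil and dendritic markers (green), and in Singlet cells over the limit of 5000 genes (purple), with exact 95% intervals and dashed lines at 2-fold. Cd36 on day 4 read 2.13, 4.03 and 3.11 in these 3 sets, and on day 7 it read 0.59, 0.65 and 1.22.

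Hmox1 and Arg1 marked opposite libraries. Hmox1 stood at 3.30, 37.4, 59.9, 63.7 and 89.0 CPM in the control library on days 0, 3, 4, 5 and 7. In the heme library it stood at 135, 161, 1399, 2324 and 5201 CPM, 58.5-fold above control on day 7. Arg1 was under 3 CPM until day 5 in both libraries, and on day 7 it was at 277 CPM in the control and 2.26 CPM in the heme culture, 122-fold lower with heme. Receptors that go with Arg1 can therefore be described in the control culture of day 7 alone, since under 20 cells with Arg1 were found in each of the other exposed or control cultures of days 4, 5 and 7.

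All 8 receptors were detected more often in Hmox1-positive than in Hmox1-negative cells of the heme culture of day 7, beside 8.75% of all genes. Only 100 cells there had no Hmox1 UMI, against 1800 with one. Marco was seen in 39.4% of the positive (37.2 to 41.7%) and 3.00% of the negative cells (0.623 to 8.52%). Axl was seen in 23.3% and 1.00%. The Hmox1-negative cells were also poor in Csf1r (8.00% against 43.4%). On days 4 and 5 of the heme library, 6 of the 8 receptors were more often detected with Hmox1 on each day, beside 6.28% and 4.31% of all genes. Hmox1 was found in 78.6% and 90.8% of those cells. Csf1r was more often detected with it as well (20.7% against 10.9%, and 33.5% against 15.7%). Neutrophil-marker high heme cells held 755 and 1414 CPM Hmox1 on these days, against 3694 and 4145 CPM in cells low in both marker shares. The part of this mix of cells was not tested.

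In the control library Hmox1 was found in 17.1% of day 7 cells. There 4 receptors were more often detected with it (Msr1, Cd36, Mrc1, Trem2), beside 7.26% of all genes. Trem2 was seen in 52.3% of Hmox1-positive (47.4 to 57.2%) and 26.9% of Hmox1-negative cells (25.0 to 28.9%). The intervals of Axl (42.2% and 39.7%) and Adgre1 (17.3% and 15.7%) overlapped. On days 4 and 5, 5 and 3 receptors were more often detected, beside 6% and 4.13% of all genes.

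Arg1 was detected in 306 control cells of day 7, or 12.5%. Of the 8 receptors, 3 were more often found in them, beside 7.39% of all genes: Msr1 (43.8% against 17.6%), Mrc1 (19.9% against 11.5%) and Trem2 (59.2% against 27.3%). Csf1r behaved likewise (54.9% against 33.8%). Axl was seen in 37.9% of Arg1-positive and 40.5% of Arg1-negative cells, Cd36 in 31.7% and 26.2%, and Adgre1 in 12.1% and 16.5%, all with overlapping intervals.

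**Figure D4:**
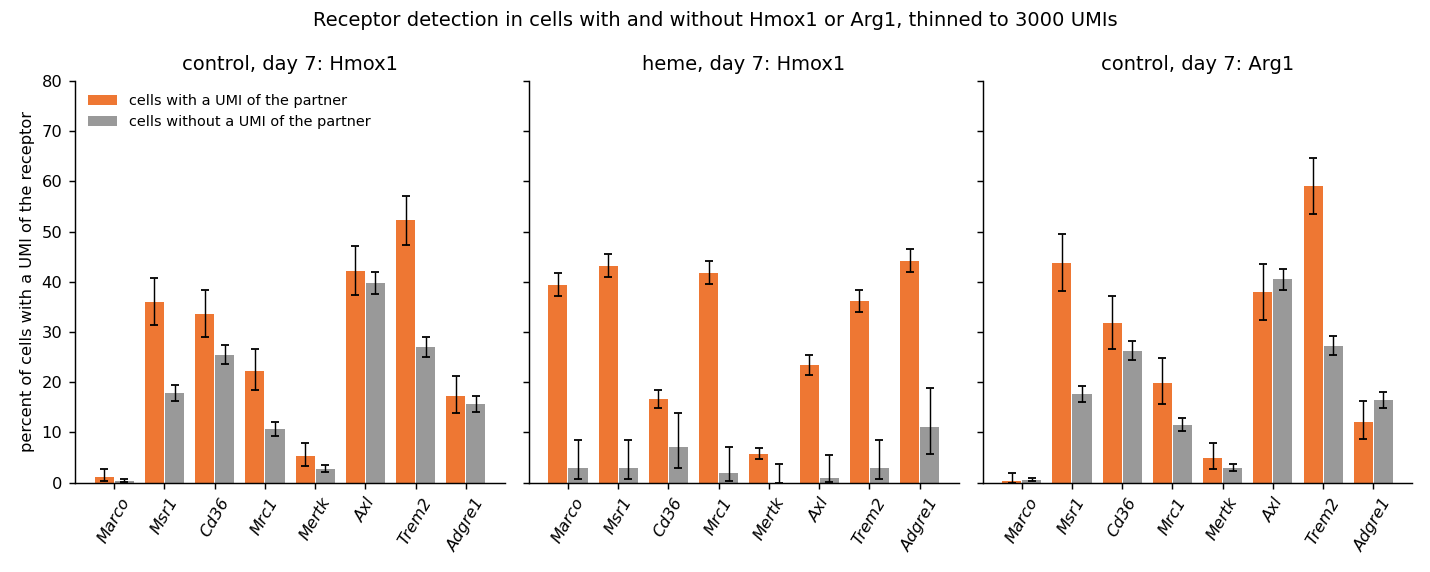
Percent of day 7 cells with a UMI of each receptor among cells with (orange) and without (grey) a UMI of the partner gene, after thinning to 3000 UMIs, with exact 95% binomial intervals. Hmox1 is the partner in the control (left) and heme (middle) culture and Arg1 in the control culture (right). Msr1, Mrc1 and Trem2 were above the grey bars in all 3 panels, with intervals that did not overlap, and Axl and Adgre1 in the middle one only.

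A graded view was obtained within the cells low in both marker shares, which were divided into tertiles by the share of Hmox1 among their UMIs. On day 7 of the heme library, Hmox1 averaged 3101, 6009 and 9028 CPM in the lowest, middle and highest tertile. Marco stood at 283, 651 and 967 CPM in these tertiles, a 3.41-fold span. Mertk stood at 14.5, 29.6 and 40.8 CPM, and Cd36 at 109, 134 and 208 CPM. Msr1 stood at 209, 331 and 362 CPM, and Trem2 at 182, 221 and 250 CPM. Mrc1 (236, 384 and 381 CPM) and Adgre1 (198, 242 and 252 CPM) were similar in the upper tertiles. Axl showed no such order, with 138, 162 and 133 CPM. Spic, a transcription factor of red pulp macrophages, stood at 92.0, 128 and 157 CPM, and Csf1r at 223, 255 and 256 CPM.

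On days 4 and 5 the same order held for Cd36, at 159, 528 and 636 CPM on day 4 and 394, 497 and 883 CPM on day 5. Msr1, Mrc1 and Trem2 showed the same rising order on both days, with the highest tertile 1.64-fold to 2.70-fold above the lowest. Marco was not graded throughout, with 10.2, 29.9 and 24.7 CPM on day 4 and 15.7, 46.2 and 46.9 CPM on day 5. Mertk stood at 0.60, 8.76 and 19.2 CPM on day 4 and at 2.37, 6.40 and 7.38 CPM on day 5. It rested on 1 to 39 UMIs per tertile. Axl (1.09-fold and 1.20-fold) and Adgre1 (1.03-fold and 1.17-fold) again differed least. Csf1r stood at 181, 239 and 235 CPM on day 4 and at 178, 265 and 265 CPM on day 5. Median UMIs per cell ranged from 14147 to 17891 over the day 4 tertiles and from 14333 to 16833 over those of day 7, lowest in the lowest tertile on both days, and the part of depth was not tested.

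**Figure D5:**
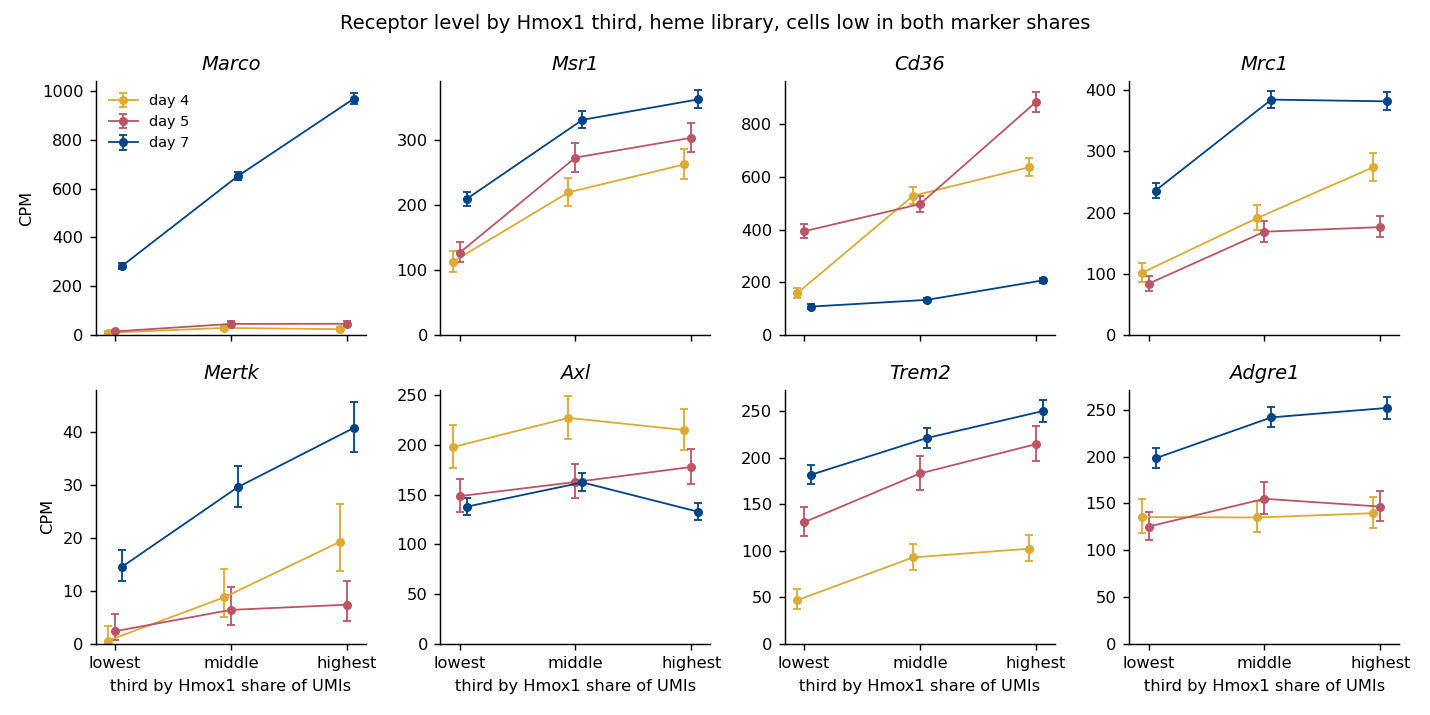
Level of each receptor (CPM, linear axis from 0) in tertiles of cells by Hmox1 share, for the heme cultures of days 4 (yellow), 5 (red) and 7 (blue), in cells low in neutrophil and dendritic markers; bars are 95% Poisson intervals. Marco on day 7 went from 283 to 967 CPM across the tertiles, whereas Axl stayed between 133 and 162 CPM.

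In the control culture of day 7 the same range of cells was divided at 2 Arg1 UMIs. The 335 cells with 2 or more held 238 CPM Msr1 against 104 CPM in the other 1624, and 278 against 168 CPM Trem2. The order was the opposite for Axl (192 against 298 CPM) and Adgre1 (49.9 against 86.4 CPM). Cells with 2 or more Hmox1 UMIs in this culture (558 of 1959) held more Mrc1 (126 against 53.4 CPM) and less Adgre1 (59.9 against 90.1 CPM), at a median of 15766 against 11683 UMIs per cell.

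The partners of these receptors were read from lists of related genes. Among bridging molecules, 7 of 7 genes passed the filter of 20 UMIs on day 7, with 1 higher and 3 lower. These counts and those of the lists that follow stand beside 14.5% of all genes higher and 7.37% lower on that day. Gas6, the ligand of Axl and Mertk, stood at 0.75 CPM in the control and 13.3 CPM in the heme culture (17.8-fold, 11.8 to 27.8). The complement genes C1qa, C1qb and C1qc, whose products coat apoptotic cells, were lower on days 4, 5 and 7. C1qb stood at 215 CPM in the control and 4.53 CPM in the heme culture of day 7 (47.5-fold lower), and C1qc was already 2.11-fold lower on day 3.

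Among other efferocytosis receptors, 6 of 8 passed the filter and 1 was higher on day 7. This was Itgb3, a subunit of the vitronectin receptor, at 0.75 and 5.27 CPM (7.05-fold), which was also 2.84-fold higher on day 3. Among other scavenger receptors 9 of 15 passed, with 3 higher and 1 lower (14.5% and 7.37% over all genes). Of the adaptors and engulfment genes 10 of 11 passed, with 2 higher and 0 lower. Their median log2 ratio was 0.22 against 0.27 for all genes.

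Among 10 lipid genes and regulators, 3 were higher and 3 lower on day 7, again beside 14.5% and 7.37% of all genes. Abca1, which exports cholesterol, stood at 33.6 CPM in the control and 1.74 CPM in the heme culture (19.3-fold lower). It was within 2-fold on day 3. Of 6 family relatives, 2 were higher and 2 lower. Treml4, a relative of Trem2, stood at 1.59 and 63.8 CPM (40.2-fold higher), and was 1.88-fold higher on day 3.

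Genes whose course over the 10 cultures was most like that of a receptor were found by Pearson's r of log2(CPM + 1). These values are descriptions over cultures that share 2 libraries. The course of Msr1 was nearest to Myof (r = 0.996), Grn (0.995) and Cd300c2 (0.991). For Adgre1 the nearest were Cndp2 (0.992), Slc37a2 (0.99) and Tnfrsf1b (0.99). Cd36 was nearest to Pla2g7 (0.984), Acod1 (0.979) and the dendritic cell receptor Ccr7 (0.978), and Axl to Hpcal1 (0.986), Egr2 (0.985) and Rmnd5b (0.982). Marco was nearest to Ipo13 (0.973), Gm47586 (0.971) and Klc1 (0.971), and Mrc1 to Sh3tc1 (0.983), Snx2 (0.979) and P2ry10b (0.976). For Mertk the nearest were Ephx1 (0.972), Gadd45g (0.971) and Plod1 (0.963), and for Trem2 they were Tmem65 (0.979), Cd68 (0.975) and Ephx1 (0.974). Among the receptors, Msr1 and Adgre1 were most alike (0.967) and Marco and Axl least (0.189).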

How the data were processed

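Raw UMI counts of genes by barcode were deposited, as the authors obtained them from Cell Ranger (4.0.0 per the submitters' processing notes, 5.0.0 per the matrix headers; build GRCm38.p6). Hashtag classes, the deposited text calls (HTODemux of Seurat 3.2.3, quantile 0.99), were used as they stand, and Singlet barcodes were kept. Following the study's methods, cells with 500 to 5000 genes, under 15% mitochondrial and under 30% ribosomal protein UMIs entered; the methods word the last limits the other way round. The design text gives exposures in hours that do not match harvest days, so culture days were used. No further doublet caller was run.

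Counts were summed per library and day and expressed as CPM. Ratios have exact 95% intervals; a 2-fold difference was looked for in genes that reached 20 UMIs over the cultures compared. Shares of cells were taken after thinning to 3000 UMIs, and co-detection was called where both 95% intervals did not overlap. Annotation matched 26090 of 26124 gene identifiers. Members and lists were chosen with earlier results of these data known. Text names the members, Hmox1, Arg1, listed genes past 2-fold the same way on days 4, 5 and 7, and the 3 genes most like each member; Csf1r, Spic and the progenitor markers were added afterwards as references. Python 3.11.15, numpy 2.4.6, scipy 1.17.1, edgeR 4.0.16 and DESeq2 1.42.0 (both for scaling factors only) were used, and the calculations were tested on simulated data. A gene of the pathway lists that the rule for named genes picked is not reported here.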

Additional observations from a re-analysis of the deposited data

Results flagged for a closer look

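The direction of the difference between the libraries was not the same on all days for 4 receptors, with intervals on opposite sides of 1, and the difference between days was not tested. For Cd36 the ratio of heme to control was 2.13 on day 4, 1.83 on day 5 and 0.59 on day 7. For Mrc1 it was 0.90, 1.50 and 4.37 on the same days, but 1.44 on day 4 with all Singlet cells and 1.43 without the upper limit of genes. For Mertk it was 0.59 on day 5 and 1.87 on day 7, and these 2 settings gave 1.00 and 0.99 on day 5. For Trem2 it was 0.63 on day 4, 1.12 on day 5 and 1.16 on day 7. The same settings gave 1.01 on day 4, and with TMM or DESeq2 scaling Trem2 was at 0.91 or 0.95 on day 5 and 0.97 or 0.98 on day 7. The Cd36 ratio of day 7 was 1.16 with all Singlet cells and 1.10 without the upper limit. With all Singlet cells, none of the ratios of these 4 receptors on days 4, 5 and 7 was below 1.00.

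Singlet cells with over 5000 genes, which are outside the main comparison, gave a ratio past 2-fold where the kept cells did not. Msr1 reached 2.07 on day 4 and 3.15 on day 5 in these cells, Cd36 2.93 on day 5 and Mrc1 2.35 on day 5. They numbered 153 control and 516 heme cells on day 4 and 218 and 754 on day 5. The limit on genes removed 16.4% to 33.9% of heme Singlet cells and 1.92% to 8.34% of control Singlet cells over the 5 cultures.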

How the results depend on the processing

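The share of all genes called was computed for the main comparison only. The counts of receptors in this paragraph therefore have no such share beside them and cannot be set against all genes. Scaling by TMM or DESeq2 factors moved all ratios between the libraries by -0.33 to -0.24 on the log2 scale. With either, 1 receptor was higher and 1 lower on day 4, and 2 were lower on days 5 and 7; TMM left 1 higher on day 5. With all Singlet cells of 500 or more genes, or without the upper limit of genes, 5 receptors were higher and 0 lower on day 5, and 0 lower on day 7, where Cd36 changed direction (ratio 1.16 and 1.10) and Axl read 0.54 and 0.51. Axl also left the 2-fold call of day 7 (0 lower) without the ribosomal limit, without the 5% of cells with most UMIs and by the mean of the cells' CPM. The last 2 settings gave 1 higher and 1 lower on day 4, and leaving out the top cells gave 2 lower on day 5. With day 0 levels subtracted, 2 were lower on day 4. Divided by the day 3 ratio, 0, 0 and 2 were higher and 2, 3 and 2 lower on days 4, 5 and 7, and Marco reversed to log2 ratios of -3.02 on day 4 and -3.34 on day 5. In that setting the day 7 ratio of Marco was 1.14, in place of 138.

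Without thinning, 8 receptors were more often detected with Hmox1 in each control culture of days 4, 5 and 7, 3 in the heme culture of day 4, and 6 with Arg1. Over all genes detected in 20 or more cells, the same rule called 51.5%, 48.3% and 58.0% in the control cultures (7, 7 and 8 of the receptors), 31.4% in that heme culture and 33.4% with Arg1 in the control culture of day 7. Unthinned, Arg1 was also found in 36 and 32 control cells of days 4 and 5 and in 20 heme cells of day 7. In each of these cultures 4 receptors were more often detected with it, beside 14.8%, 9.06% and 5.73% of all genes. When 3 Hmox1 UMIs were required, the control counts were 1, 0 and 2. Within cells low in both marker shares the control count of day 4 was 1, and without the top cells that of day 5 was 0. With all Singlet cells, 5 receptors went with Arg1. Against day 3 of the heme library, day 4 had 3 higher and 0 lower without the upper limit of genes or with all Singlet cells, and 2 higher with DESeq2 factors. These within-library, marker-range and cut alternatives were chosen after seeing the data. For the thinned counts of this paragraph and those against day 3, no share over all genes was computed in the same setting. Over all counts of receptors, 119 of 165 values stayed within 1.5 times the reported count. Of 279 log2 ratios of single receptors, 119 stayed within the counting interval of the reported value, 158 moved outside it and 2 past 2-fold (those of Marco above) changed direction. Of 192 shares of cells, 160 moved outside theirs. No cause of these changes was tested.

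No paired analysis was possible because each condition was 1 library, and no replicate was there to leave out. Counting intervals were narrow for most receptors on day 7 and wider on days 0 and 3, where Mertk and control Marco rest on few UMIs. Treatment, library and pool background cannot be told apart.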
